A study of Mus musculus with 6 samples.

Results

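The 34 genes described here encode the enzymes that make and recycle nucleotides and the folate-dependent enzymes that feed them with one-carbon units. They were taken as a list of symbols and matched to Ensembl identifiers with the GENCODE vM1 annotation of the mouse genome build NCBIM37 (mm9). All 34 were found among the 37991 identifiers counted, and all 34 were among the 16683 genes tested. The list was divided by role into 7 groups, which are synthesis of inosine monophosphate (IMP, 6 genes), conversion of IMP to AMP and GMP (4 genes), pyrimidine synthesis (5 genes), thymidylate synthesis and one-carbon folate metabolism (6 genes), ribonucleotide reductase (3 genes), supply of phosphoribosyl pyrophosphate (PRPP) and nucleoside diphosphate kinases (4 genes), and salvage and deoxynucleotide metabolism (6 genes).

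The libraries were RNA-seq of primary pre-B cells sorted from bone marrow, with 2 biological replicates, taken from individual animals, at each of 3 stages and therefore 6 libraries. The labels give the same gate for all stages (B220-high, IgM-low and IgD-low). The study's methods give it only for wild-type and premalignant cells, which they call pro-B and pre-B cells. They describe the malignant cells as pre-B cells that were B220-positive and negative for IgM and IgD. The wild-type animals were 4 to 6 weeks old, and the premalignant animals, of the same age, were heterozygous for the Eμ-Myc transgene (genotype E{mu}Myc/+), in which the immunoglobulin heavy-chain enhancer drives Myc in B-lineage cells. The malignant animals carried the same transgene and were taken when spontaneous lymphoma had developed, at 10 to 20 weeks. All animals were C57BL/6. By the study's methods wild-type and premalignant cells came from females and malignant cells from either sex, and the labels give no sex for a library. Malignancy therefore cannot be told apart from age, from the gate or from any difference in sex, and Ctps2, Prps1, Prps2 and Hprt lie on the X chromosome. The comparisons address how the expression programme changes from wild-type to premalignant and to malignant cells.

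Purine nucleotides are assembled on PRPP, whereas the pyrimidine ring is made first and then joined to PRPP. Folate carriers deliver one-carbon units, drawn largely from serine, to the purine ring and to thymidylate, and ribonucleotide reductase converts ribonucleotides to the deoxynucleotides needed for DNA. Pre-B cells divide rapidly during a part of their development, and several of these genes are known as targets of MYC.

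Promoter windows of RefSeq (build GRCm38.p6), reaching from 250 bases before to 50 bases after each annotated gene start, were available for 31 of the 34 genes, all but Pfas, Dhodh and Rrm2b. Both strands were searched for the canonical E-box CACGTG, which MYC with its partner MAX can bind. It was present in 6 of 31 genes (19.4%), compared with 11.4% of the 10066 genes tested that had a window and 8.09% of the 27025 genes in the RefSeq table. The 6 genes were Paics, Atic, Impdh2, Tyms, Nme1 and Dtymk. A set of 4 letter strings bound by E2F factors (TTTCCCGC, TTTCGCGC, TTTGCCGC and TTTGGCGC) was found in 2 of 31 genes (6.45%, Ppat and Prps2), with 4.46% among genes tested and 2.6% in the table. The string TGATGNAA, which is read by ATF4, was found only in Prps1 among the 31 genes (3.23%), with 2.87% among genes tested and 4.51% in the table. These are matches of letters and not measured binding sites, and the E-box and E2F strings do not share a match.

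The following windows are shown because they belong to the committed step of purine synthesis and its neighbour (Ppat and Paics, which overlap at their 5′ ends on opposite strands), to the purine enzyme with the largest rise (Atic), and to the IMP dehydrogenase pair whose members changed in opposite directions (Impdh2 and Impdh1). Each is written 5′ to 3′ on the strand of its gene, with the E-box in capitals, or for Ppat the E2F strings in capitals. Positions are counted from the gene start, -1 being the base before it. The E-box lay at position -203 in Paics, at -7 in Atic and at -110 in Impdh2, and the E2F strings of Ppat lay at -211 and -158. Neither of the 2 windows of Impdh1, of which one is shown, held any of these strings.
Ppat, chr5:76951529-76951828, minus strand: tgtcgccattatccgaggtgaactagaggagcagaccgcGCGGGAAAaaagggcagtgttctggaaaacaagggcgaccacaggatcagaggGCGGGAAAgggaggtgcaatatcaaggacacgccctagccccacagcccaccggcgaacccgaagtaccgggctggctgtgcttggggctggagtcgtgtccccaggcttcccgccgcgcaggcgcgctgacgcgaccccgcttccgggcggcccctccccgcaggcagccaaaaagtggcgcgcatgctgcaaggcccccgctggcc
Paics, chr5:76951052-76951351, plus strand: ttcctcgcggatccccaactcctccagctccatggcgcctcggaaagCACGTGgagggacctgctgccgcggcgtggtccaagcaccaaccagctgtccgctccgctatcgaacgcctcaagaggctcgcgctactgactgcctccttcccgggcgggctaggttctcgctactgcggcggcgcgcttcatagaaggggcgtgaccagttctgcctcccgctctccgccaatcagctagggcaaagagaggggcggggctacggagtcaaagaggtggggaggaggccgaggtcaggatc
Atic, chr1:71556906-71557205, plus strand: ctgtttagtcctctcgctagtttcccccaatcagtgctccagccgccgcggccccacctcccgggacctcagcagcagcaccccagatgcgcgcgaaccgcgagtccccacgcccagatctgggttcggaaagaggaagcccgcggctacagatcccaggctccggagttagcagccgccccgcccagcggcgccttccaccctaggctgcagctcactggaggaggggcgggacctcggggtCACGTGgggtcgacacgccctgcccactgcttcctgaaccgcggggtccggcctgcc
Impdh2, chr9:108560186-108560485, plus strand: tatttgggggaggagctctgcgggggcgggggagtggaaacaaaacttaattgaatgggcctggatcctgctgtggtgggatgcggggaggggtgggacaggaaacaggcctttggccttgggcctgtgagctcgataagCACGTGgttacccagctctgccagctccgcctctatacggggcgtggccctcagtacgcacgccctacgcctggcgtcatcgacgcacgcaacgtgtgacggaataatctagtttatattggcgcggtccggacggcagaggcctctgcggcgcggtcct
Impdh1, chr6:29216315-29216614, minus strand: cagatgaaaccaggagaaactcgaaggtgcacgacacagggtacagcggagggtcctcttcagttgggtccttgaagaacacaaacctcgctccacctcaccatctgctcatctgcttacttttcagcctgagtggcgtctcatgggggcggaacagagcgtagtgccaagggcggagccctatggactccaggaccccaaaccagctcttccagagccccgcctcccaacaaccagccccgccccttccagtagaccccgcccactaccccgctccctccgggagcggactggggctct

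Total counts per library lay between 30031100 and 53453055, with replicate 1 the deeper library at each stage, and each of the 34 genes had between 545 and 30202 counts in each library, so that depth did not limit any of them. Levels are given as CPM, the count relative to the library total after TMM scaling, in the order replicate 1 and replicate 2. Myc itself stood at 33.8 and 41.4 CPM for wild type, 1164 and 1155 CPM for premalignant and 1732 and 1578 CPM for malignant replicates, which follows the genotype on the labels. Cd79a and Pax5, which define B cells, were present in all 6 libraries, but 9 of 10 B-lineage markers fell from wild type to malignant cells, and the surrogate light chain gene Igll1, a pre-B marker, stood at 197 and 195 CPM (wild type), 18.8 and 9.58 CPM (premalignant) and 0.167 and 7.56 CPM (malignant). Compared with wild type, in malignant cells all 11 granulocyte and monocyte, 6 of 8 erythroid and 8 of 9 T- and NK-cell markers were called lower. The summed level of 11 granulocyte and monocyte markers was 1232 and 2812 CPM in wild type, 378.6 and 403.3 CPM in premalignant and 90.6 and 173.3 CPM in malignant cells. The summed level of 8 erythroid markers was 344.9 and 1353 CPM, 83.8 and 186.5 CPM, and 68.6 and 80.2 CPM, in the same order, and that of 9 T- and NK-cell markers was 219.5 and 81.8 CPM, 38.6 and 15.9 CPM, and 1.90 and 11.5 CPM. All of these markers were detected in the wild-type libraries, while Cd3e had no count in premalignant replicate 2 and Trac none in malignant replicate 2. Of 20 genes of DNA synthesis and mitosis, 17 rose in premalignant and 13 in malignant cells relative to wild type, with summed levels of 6895 and 4717 CPM in wild type, 10041 and 10626 CPM in premalignant and 7797 and 9019 CPM in malignant cells. What part these differences in cell makeup and proliferation have in the results was not tested, and in such bulk samples fewer cells of a type and less RNA per cell cannot be told apart.

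Most of the enzymes were higher in both Eμ-Myc stages than in wild type. A gene was called where edgeR's quasi-likelihood test gave a Benjamini-Hochberg adjusted p of at most 0.1 over all genes tested and the log2 fold change was at least 0.5 in size. Errors of log2 fold changes are standard errors, and a pair of such values is given in the order premalignant and malignant, each against wild type. In malignant compared with wild-type cells 33 of the 34 genes were called, 29 higher and 4 lower, where 49.2% of all genes tested were called (24.9% higher and 24.3% lower). In premalignant compared with wild-type cells 30 passed, 27 higher and 3 lower, against a background of 39.3% (19% higher and 20.3% lower). The median log2 fold change of the 34 genes was 1.72 in malignant and 1.46 in premalignant cells, and the median of all genes tested was -0.0193 and -0.0815. Both libraries of one stage lay above both of the other for 33 genes in each of these comparisons, as they did for 71.7% and 77.4% of all genes tested. Both comparisons use the same 2 wild-type libraries, so a high or low wild-type level moves both. In malignant against premalignant cells only 6 of the 34 passed, 4 higher and 2 lower, where 6.18% of all genes tested passed (3.73% higher and 2.45% lower). The p-values rest on the spread between the 2 libraries of each stage, estimated over all 3 stages in 1 fit. Each comparison therefore also draws on the stage that it leaves out.

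**Figure D1:**
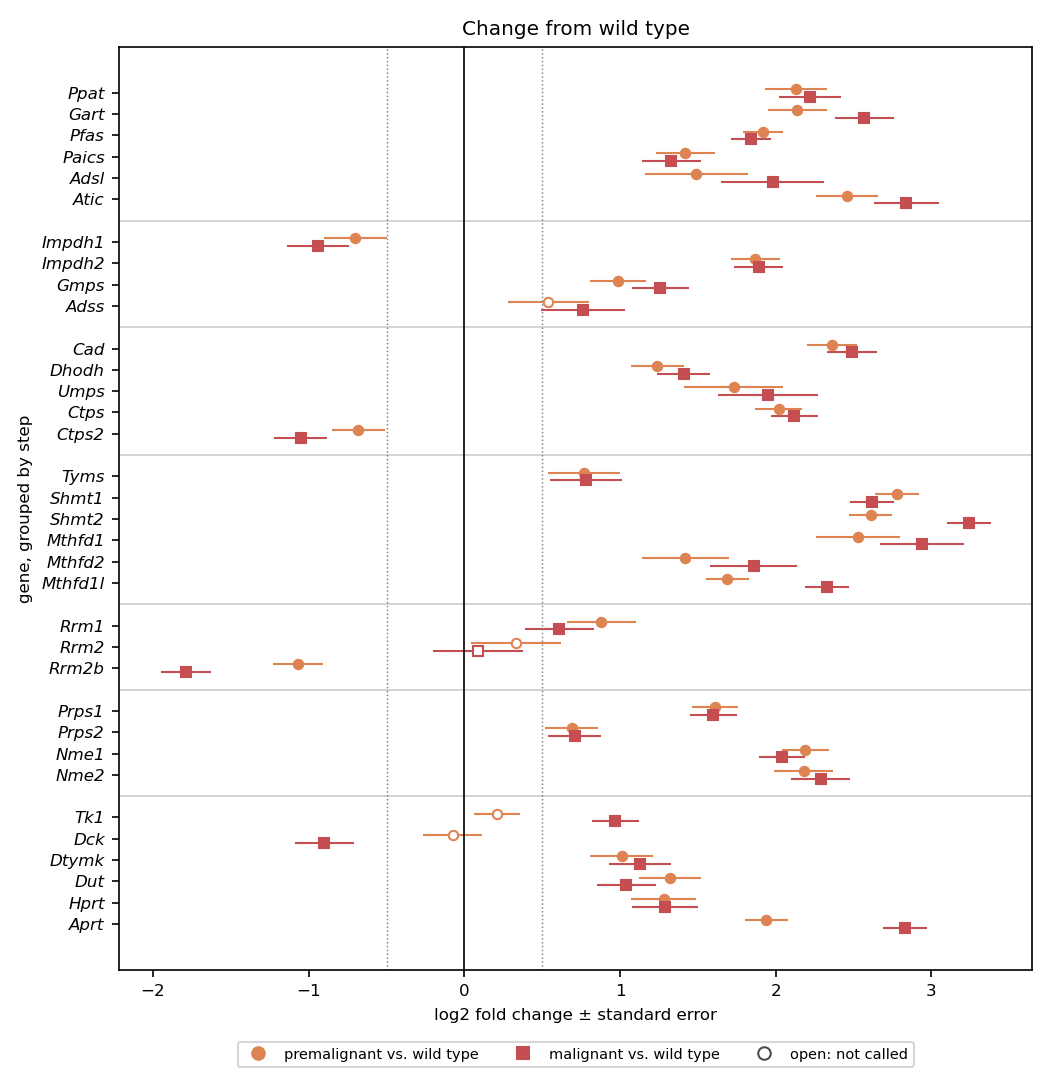
Log2 fold change (horizontal axis, edgeR, bars are ± 1 standard error) of the 34 genes in premalignant (circles) and malignant (squares) compared with wild-type cells, grouped by step, with dotted lines at the 0.5 threshold and open symbols for genes not called. The 27 genes called higher in both comparisons lie to the right of the upper dotted line, and Impdh1, Ctps2 and Rrm2b lie to the left of the lower one.

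All 6 genes of IMP synthesis were called higher in both premalignant and malignant cells, with a median log2 fold change of 2.02 and 2.10, and their summed level went from 483.8 and 401.1 CPM in wild type to 1592 and 1663 CPM in premalignant and 1847 and 1888 CPM in malignant cells. Atic (ENSMUSG00000026192, chr1:71603724-71626205, + strand), which carries out the last reactions to IMP with a formyl group from folate, stood at 69.3 and 66.9 CPM for wild type, 368 and 380.3 CPM for premalignant and 578 and 399 CPM for malignant replicates. Its log2 fold change was 2.46 ± 0.20 (SE, adjusted p = 0.00182) in premalignant and 2.84 ± 0.21 (SE, adjusted p = 0.000633) in malignant cells, the latter a 7.17-fold difference and the largest of the branch. No library of an Eμ-Myc stage overlapped wild type, and malignant replicate 1 stood above the other malignant library. Gart (ENSMUSG00000022962, chr16:91621431-91647197, - strand), a multifunctional enzyme that also takes a formyl group from folate, stood at 72.1 and 65.01 CPM for wild type, 287 and 317 CPM for premalignant and 346 and 471 CPM for malignant replicates. It changed by 2.57 ± 0.19 (SE, adjusted p = 0.000675) in malignant cells, and an antisense gene, Gm15964, overlaps 16.9% of its exons. Ppat (ENSMUSG00000029246, chr5:77342274-77380603, - strand), the committed step of the pathway, stood at 41.3 and 28.9 CPM for wild type, 150.4 and 157 CPM for premalignant and 159 and 169.6 CPM for malignant replicates, with a log2 fold change of 2.22 ± 0.20 (SE, adjusted p = 0.000888) in malignant cells. Its neighbour Paics (ENSMUSG00000029247, chr5:77380332-77396534, + strand), which shares 272 bases of exon with it on the opposite strand, stood at 193 and 139.8 CPM for wild type, 433 and 455 CPM for premalignant and 438 and 397 CPM for malignant replicates. Per length of exon Paics had the highest wild-type level of the branch, with a mean of 59.5 RPKM (reads per kilobase of exon, scaled to total counts), and its log2 fold change of 1.33 ± 0.19 in malignant cells was the smallest. Pfas stood at 64.7 and 60.8 CPM (wild type), 243 and 231 CPM (premalignant) and 219.7 and 230 CPM (malignant), with a log2 fold change of 1.92 ± 0.13 in premalignant and 1.84 ± 0.13 in malignant cells. Adsl, which acts both here and in AMP synthesis, stood at 43.5 and 39.7 CPM (wild type), 111 and 123 CPM (premalignant) and 107 and 222 CPM (malignant). It was higher in both stages, and its malignant libraries differed from one another by 1.05 on the log2 scale, the widest gap between replicates of any of the 34 genes.

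At the step from IMP towards GMP the 2 isoforms changed in opposite directions. Impdh2 (ENSMUSG00000062867, chr9:108462774-108467895, + strand) and Impdh1 (ENSMUSG00000003500, chr6:29150434-29166364, - strand) are the isoforms of IMP dehydrogenase, the limiting step of GMP synthesis. Impdh2 stood at 94.5 and 78.3 CPM for wild type, 316 and 316 CPM for premalignant and 344 and 296 CPM for malignant replicates, and rose by 1.87 ± 0.16 (SE, adjusted p = 0.00186) and 1.89 ± 0.16 (SE, adjusted p = 0.000801) on the log2 scale. Impdh1 stood at 99.5 and 104 CPM for wild type, 66.1 and 59.1 CPM for premalignant and 43.5 and 62.6 CPM for malignant replicates, and changed by -0.70 ± 0.20 (SE, adjusted p = 0.0404) and -0.94 ± 0.20 (SE, adjusted p = 0.0116). Wild type was the lowest stage for Impdh2 and the highest for Impdh1, with no overlap in either. Only 8.64% of the 50-base windows in Impdh2 exons are unique in the genome, so its counts depend on how multiply mapped reads were treated, whereas all windows of Impdh1 (100%) are unique. Gmps, which completes GMP, was higher in both stages, by 0.99 ± 0.18 and 1.26 ± 0.18. Adss, which opens the way to AMP, stood at 125 and 120 CPM (wild type), 167 and 189 CPM (premalignant) and 265 and 149.8 CPM (malignant) and was called only in malignant cells, with a log2 fold change of 0.76 ± 0.27 (SE, adjusted p = 0.0601). That call was lost at an adjusted p of at most 0.05 and without any 1 of the wild-type libraries, the premalignant libraries or malignant replicate 1, and malignant replicate 2 lay below both premalignant libraries.

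**Figure D2:**
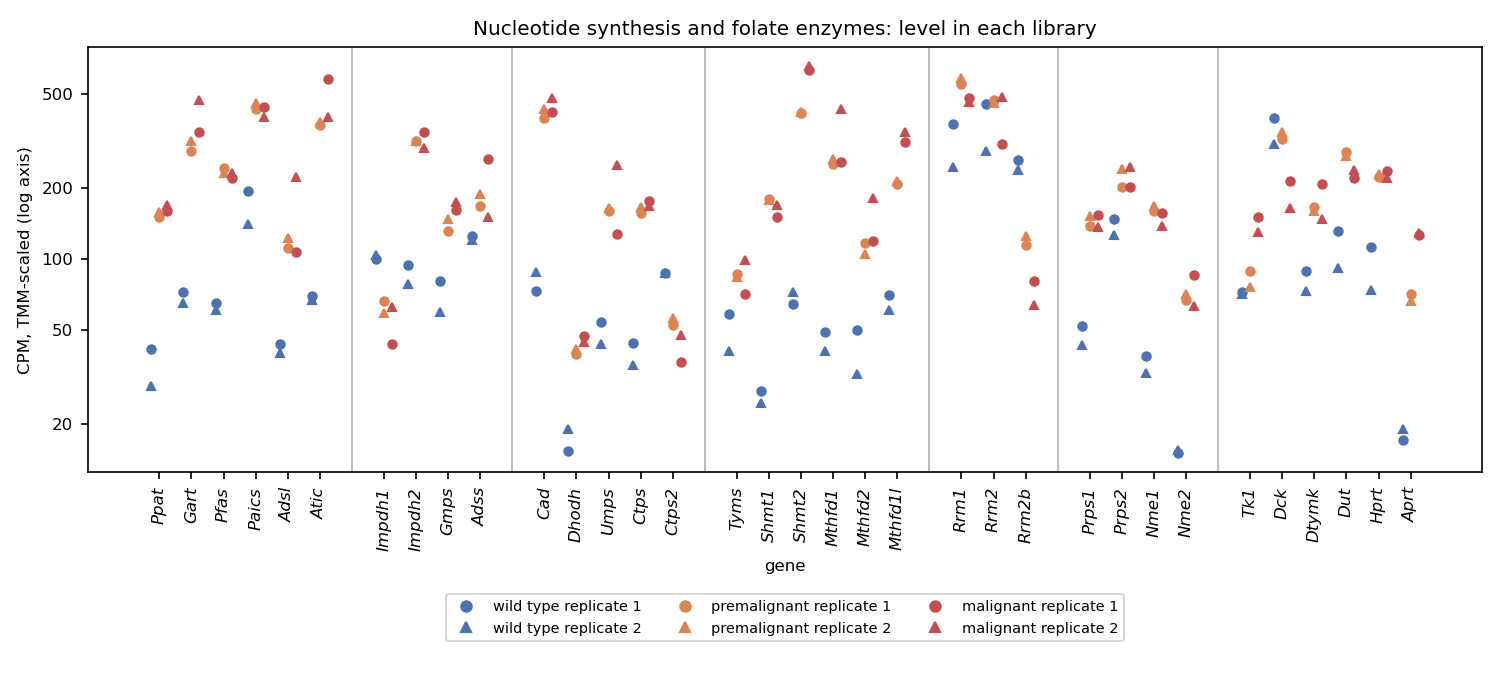
Level of each of the 34 genes in the 6 libraries, in TMM-scaled CPM on a log axis, with genes grouped by step between the vertical lines, colours for the stages and symbols for the replicates. The wild-type points of Impdh1, Ctps2 and Rrm2b sit above those of the other stages, and those of the 27 genes called higher in both stages sit below.

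Of the 5 pyrimidine genes, 4 were higher and 1, an isoform of CTP synthetase, was lower in both Eμ-Myc stages. Cad (ENSMUSG00000013629, chr5:31357153-31380852, + strand), a single protein that holds the first 3 activities of the pathway, stood at 73.03 and 87.7 CPM for wild type, 393 and 429.9 CPM for premalignant and 420.2 and 479.7 CPM for malignant replicates. It rose by 2.36 ± 0.16 (SE, adjusted p = 0.00147) in premalignant and 2.49 ± 0.16 (SE, adjusted p = 0.000584) in malignant cells, the latter a 5.60-fold difference. Umps, which makes UMP, stood at 53.98 and 43.4 CPM (wild type), 159 and 164 CPM (premalignant) and 128 and 249.5 CPM (malignant) and changed by 1.95 ± 0.32 in malignant cells, where replicate 1 lay below and replicate 2 above both premalignant libraries. Dhodh, the mitochondrial step, was the least abundant of the 34 genes per length of exon at every stage, at 3.05, 6.21 and 6.61 RPKM as the means of wild-type, premalignant and malignant libraries. CTP synthetase has 2 genes. Ctps (ENSMUSG00000028633, chr4:120212473-120242881, - strand) stood at 43.8 and 35.3 CPM for wild type, 156 and 165 CPM for premalignant and 176 and 168 CPM for malignant replicates and rose by 2.12 ± 0.15 (SE, adjusted p = 0.000633) in malignant cells. Ctps2 (ENSMUSG00000031360, chrX:159339170-159470440, + strand) stood at 86.8 and 86.6 CPM for wild type, 52.2 and 55.9 CPM for premalignant and 36.5 and 47.3 CPM for malignant replicates and changed by -0.68 ± 0.17 (SE, adjusted p = 0.0259) in premalignant and -1.05 ± 0.17 (SE, adjusted p = 0.00451) in malignant cells. The wild-type libraries were the lowest for Ctps and the highest for Ctps2, and the malignant libraries of Ctps2 both lay below the premalignant ones, a difference of -0.37 ± 0.17 that was not called.

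The one-carbon folate genes had the largest median change of the 7 groups. All 6 genes of thymidylate and one-carbon metabolism were higher in both stages, with median log2 fold changes of 2.11 in premalignant and 2.47 in malignant cells, and their summed level was 318.8 and 270.8 CPM in wild type, 1255 and 1261 CPM in premalignant and 1541 and 1878 CPM in malignant cells. Shmt2 (ENSMUSG00000025403, chr10:126954195-126959491, - strand), the mitochondrial enzyme that takes a one-carbon unit from serine, stood at 64.5 and 71.95 CPM for wild type, 415 and 418 CPM for premalignant and 632 and 654 CPM for malignant replicates. It rose by 2.61 ± 0.14 (SE, adjusted p = 0.00141) in premalignant and 3.24 ± 0.14 (SE, adjusted p = 0.000478) in malignant cells, and the 9.42-fold difference in malignant cells was the largest of the 34 genes. The stages followed one another without overlap. Shmt1 (ENSMUSG00000020534, chr11:60601606-60625220, - strand), the cytosolic enzyme, stood at 27.4 and 24.5 CPM for wild type, 179 and 178 CPM for premalignant and 149.9 and 169 CPM for malignant replicates. It rose by 2.78 ± 0.14 (SE, adjusted p = 0.00141) in premalignant cells, a 6.88-fold difference and the largest of the 34 genes at that stage, and both malignant libraries lay below the premalignant ones without a call. Mthfd1 (ENSMUSG00000021048, chr12:77356219-77420807, + strand), which interconverts folate carriers in the cytosol, stood at 48.7 and 40.7 CPM for wild type, 251 and 264 CPM for premalignant and 256 and 432 CPM for malignant replicates and rose by 2.94 ± 0.27 (SE, adjusted p = 0.000995) in malignant cells, where replicate 2 was far above replicate 1. Mthfd1l, which releases formate in mitochondria, stood at 70.1 and 60.6 CPM (wild type), 208 and 213 CPM (premalignant) and 313 and 344 CPM (malignant) and rose by 1.69 ± 0.14 and 2.33 ± 0.14. Mthfd2, the mitochondrial dehydrogenase, stood at 49.7 and 32.5 CPM (wild type), 116 and 104 CPM (premalignant) and 119 and 181 CPM (malignant) and rose by 1.42 ± 0.28 and 1.86 ± 0.28. Tyms, the enzyme that spends the one-carbon unit on thymidylate, changed least of the group. It stood at 58.3 and 40.7 CPM (wild type), 85.9 and 83.5 CPM (premalignant) and 71.1 and 99.2 CPM (malignant), with log2 fold changes of 0.77 ± 0.23 (SE, adjusted p = 0.0499) and 0.78 ± 0.23 (SE, adjusted p = 0.0373), and its call in malignant cells was lost without wild type replicate 2.

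The 3 genes of ribonucleotide reductase each changed differently. The catalytic subunit Rrm1 (ENSMUSG00000030978, chr7:109590209-109618285, + strand) stood at 374 and 244 CPM for wild type, 552 and 586 CPM for premalignant and 481 and 459.9 CPM for malignant replicates, and rose by 0.88 ± 0.22 (SE, adjusted p = 0.0268) in premalignant and 0.61 ± 0.22 (SE, adjusted p = 0.0629) in malignant cells. The call in malignant cells was lost without wild type replicate 2 and without either premalignant library, and at an adjusted p of at most 0.05. Rrm2 (ENSMUSG00000020649, chr12:25393106-25399011, + strand), the small subunit used in S phase, stood at 454 and 287 CPM for wild type, 471 and 459 CPM for premalignant and 305 and 483 CPM for malignant replicates. Its libraries overlapped between malignant cells and wild type, the log2 fold changes were 0.33 ± 0.29 (SE, adjusted p = 0.426) and 0.09 ± 0.29 (SE, adjusted p = 0.832), and it was the only one of the 34 genes not called in malignant cells. Rrm2b (ENSMUSG00000022292, chr15:37853707-37891073, - strand), the small subunit that p53 induces and that serves cells outside S phase, stood at 263 and 238 CPM for wild type, 114 and 124 CPM for premalignant and 80.7 and 63.8 CPM for malignant replicates. It fell stepwise without overlap, with log2 fold changes of -1.07 ± 0.16 (SE, adjusted p = 0.0062) in premalignant and -1.79 ± 0.16 (SE, adjusted p = 0.000949) in malignant cells. Wild type replicate 1 was above replicate 2 for Rrm1, Rrm2 and Rrm2b, as it was for 28 of the 34 genes in all. The summed level of the 20 genes of DNA synthesis and mitosis was also higher in that library.

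The PRPP synthetases and nucleoside diphosphate kinases were all higher in both stages. Prps1 stood at 51.7 and 43.2 CPM (wild type), 138 and 152 CPM (premalignant) and 153 and 136 CPM (malignant) and rose by 1.61 ± 0.15 and 1.60 ± 0.15. Prps2 stood at 147 and 126 CPM (wild type), 202 and 239 CPM (premalignant) and 202 and 244 CPM (malignant) and had smaller log2 fold changes, 0.69 ± 0.17 (SE, adjusted p = 0.0264) and 0.71 ± 0.17 (SE, adjusted p = 0.0175), and its call in malignant cells was lost without wild type replicate 2. Nme1 and Nme2, neighbours on chromosome 11 that pass phosphate between nucleotides, rose side by side, Nme1 by 2.19 ± 0.15 and 2.04 ± 0.15 and Nme2 by 2.18 ± 0.19 and 2.29 ± 0.19. Nme1 stood at 38.8 and 32.7 CPM (wild type), 159.6 and 167 CPM (premalignant) and 156 and 137 CPM (malignant), and Nme2 at 15.02 and 15.4 CPM (wild type), 66.9 and 71.01 CPM (premalignant) and 85.3 and 63.3 CPM (malignant). A read-through gene shares 12.5% of the exons of Nme1 and 48.9% of those of Nme2 and had only 3 to 21 counts, so reads in the shared exons may have been left out of both.

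Salvage genes were divided. Aprt (ENSMUSG00000006589, chr8:125098537-125100807, - strand), which recovers adenine, stood at 16.97 and 18.9 CPM for wild type, 70.9 and 66.5 CPM for premalignant and 126 and 129 CPM for malignant replicates. It rose by 1.94 ± 0.14 (SE, adjusted p = 0.00154) in premalignant and 2.83 ± 0.14 (SE, adjusted p = 0.000526) in malignant cells, a 7.10-fold difference from wild type to malignant, and the stages did not overlap. Hprt, which recovers hypoxanthine and guanine, stood at 112 and 73.98 CPM (wild type), 223 and 228 CPM (premalignant) and 236 and 221 CPM (malignant) and rose by 1.28 ± 0.21 and 1.29 ± 0.21, with premalignant and malignant libraries overlapping. Tk1 (ENSMUSG00000025574, chr11:117676840-117687406, - strand), the cytosolic thymidine kinase, stood at 72.2 and 70.6 CPM for wild type, 88.8 and 76.2 CPM for premalignant and 149.7 and 129 CPM for malignant replicates. It was not called in premalignant cells, with 0.21 ± 0.15 (SE, adjusted p = 0.318), and rose in malignant cells by 0.97 ± 0.15 (SE, adjusted p = 0.00397). Dck (ENSMUSG00000029366, chr5:89194021-89212306, + strand), which salvages deoxycytidine and other deoxynucleosides, stood at 396 and 308 CPM for wild type, 323 and 345 CPM for premalignant and 214 and 164 CPM for malignant replicates. It was likewise not called in premalignant cells, with -0.07 ± 0.19 (SE, adjusted p = 0.8), and fell in malignant cells, with -0.90 ± 0.19 (SE, adjusted p = 0.0125), both malignant libraries being the lowest of the 6. Dtymk, which makes TDP, rose by 1.01 ± 0.20 and 1.13 ± 0.20, and Dut, which removes dUTP, by 1.32 ± 0.20 and 1.04 ± 0.19.

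For premalignant against wild-type cells, some calls were lost when 1 library was left out, although the log2 fold change of Impdh1, for example, stayed between -0.91 and -0.61. Impdh1 was no longer called when either wild-type library or either premalignant library was left out, and Ctps2, Tyms and Prps2 when wild type replicate 2 or either premalignant library was. Adsl was lost without wild type replicate 2 or premalignant replicate 2, Rrm1 without either premalignant library, Gmps without premalignant replicate 2 and Dtymk without premalignant replicate 1. Leaving out any wild-type or premalignant library also lowered the number called over all genes tested. The median log2 fold change of the 34 genes stayed between 1.42 and 1.71 when any 1 library was left out. For malignant against wild-type cells that median was 1.45 to 1.82. With scaling by total counts, an alternative chosen after the counts were seen, Adss, Tyms, Rrm1 and Prps2 also lost their call in malignant cells and Tyms and Prps2 in premalignant cells. Adss and Rrm1 were not called in malignant cells with upper-quartile scaling or in a fit of those 2 stages alone.

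Malignant and premalignant cells differed at 6 of the 34 genes. Aprt was higher in malignant cells by 0.89 ± 0.13 (SE, adjusted p = 0.0322), Tk1 by 0.76 ± 0.15 (SE, adjusted p = 0.0587), Mthfd1l by 0.64 ± 0.14 (SE, adjusted p = 0.0724) and Shmt2 by 0.63 ± 0.13 (SE, adjusted p = 0.0685). Dck was lower, with -0.83 ± 0.19 (SE, adjusted p = 0.0915), as was Rrm2b, with -0.72 ± 0.16 (SE, adjusted p = 0.0785). In each of these 6 genes both malignant libraries lay outside the range of the premalignant ones, which held for 19 of the 34 genes and for 51.1% of all genes tested. Aprt was the only one of the 6 that was called at an adjusted p of at most 0.05 or in a fit of these 2 stages alone. It was also the only one called when either wild-type library was left out. With scaling by total counts Mthfd1l was not called. Without premalignant replicate 1 or without premalignant replicate 2 edgeR called 0 of the 34 genes and 0 of all genes tested, with 6 of the 34 at an unadjusted p under 0.05 each time. Without malignant replicate 1 or replicate 2 more of the 34 genes were called, as were more of all genes tested. Gart, Adsl, Umps and Mthfd1 were added without replicate 1, and Atic, Impdh1, Adss and Ctps2 without replicate 2. DESeq2 called the same 6 genes, but it called 2169 of 15702 genes over the whole table, where edgeR called 1031 of 16683. The median log2 fold change of the 34 genes between these stages was 0.0934, and that of all genes tested was 0.0431.

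**Figure D3:**
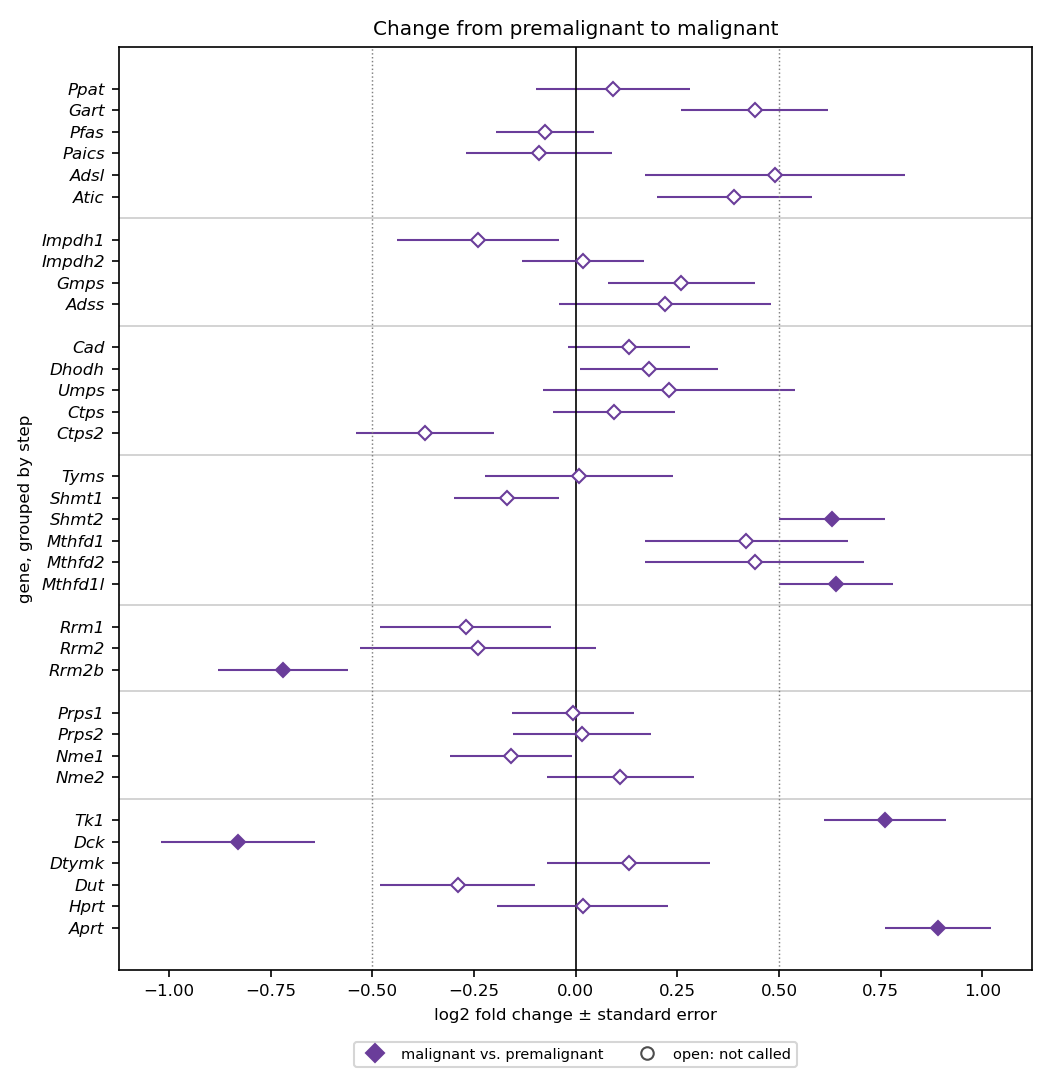
Log2 fold change of the 34 genes in malignant compared with premalignant cells (horizontal axis, edgeR, bars are ± 1 standard error), with dotted lines at the 0.5 threshold. The 6 filled symbols are the genes called, with Aprt farthest to the right at 0.89 and Dck farthest to the left at -0.83.

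Where an activity has more than 1 gene, the balance of the pair was compared within each library as a ratio of RPKM, which no scaling between libraries can alter. The share of Impdh2 in the Impdh total was 65% and 59.6% in wild type, 90.3% and 91.3% in premalignant and 93.9% and 90.3% in malignant cells, subject to the few unique windows of Impdh2. Ctps made up 41.8% and 36.7% of the CTP synthetase transcripts in wild type and 81% and 80.8% in premalignant cells, with 87.3% and 83.4% in malignant cells. The pair therefore changed its order, Ctps2 being the more abundant in wild type and Ctps in both other stages. The sum of the pair went from 35.3 and 32.7 RPKM in wild type to 57.1 and 59.2 RPKM in premalignant and 54.8 and 56.3 RPKM in malignant cells. Per length of exon Prps1 also changed place with Prps2. Its log2 ratios to Prps2 were -0.55 and -0.59 in wild type, 0.40 and 0.31 in premalignant and 0.55 and 0.11 in malignant cells. By CPM, without division by exon length, Prps2 stayed above Prps1 in all 6 libraries. The log2 ratio of Rrm2 to Rrm2b was 2.00 and 1.48 in wild type, 3.26 and 3.10 in premalignant and 3.14 and 4.13 in malignant cells. Of the pair, Rrm2b was called lower in both stages and Rrm2 was called in neither. The mitochondrial Shmt2 exceeded the cytosolic Shmt1 by log2 ratios of 2.00 and 2.32 in wild type, 1.98 and 2.00 in premalignant and 2.84 and 2.72 in malignant cells. The sum of both was 39.5 and 42.7 RPKM in wild type, 224 and 220.2 RPKM in premalignant and 285 and 307 RPKM in malignant cells. The ratio of Mthfd2 to Mthfd1 moved the other way, from 0.32 and -0.04 to -0.82 and -1.05 and to -0.82 and -0.97. That of Mthfd1l to Mthfd1 was 0.11 and 0.16 in wild type, -0.69 and -0.73 in premalignant and -0.12 and -0.74 in malignant cells, and Nme1 and Nme2 kept overlapping ratios between wild type and malignant cells. With 2 libraries against 2 the smallest two-sided p of an exact permutation test is 0.333, so these ratios were not tested.

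**Figure D4:**
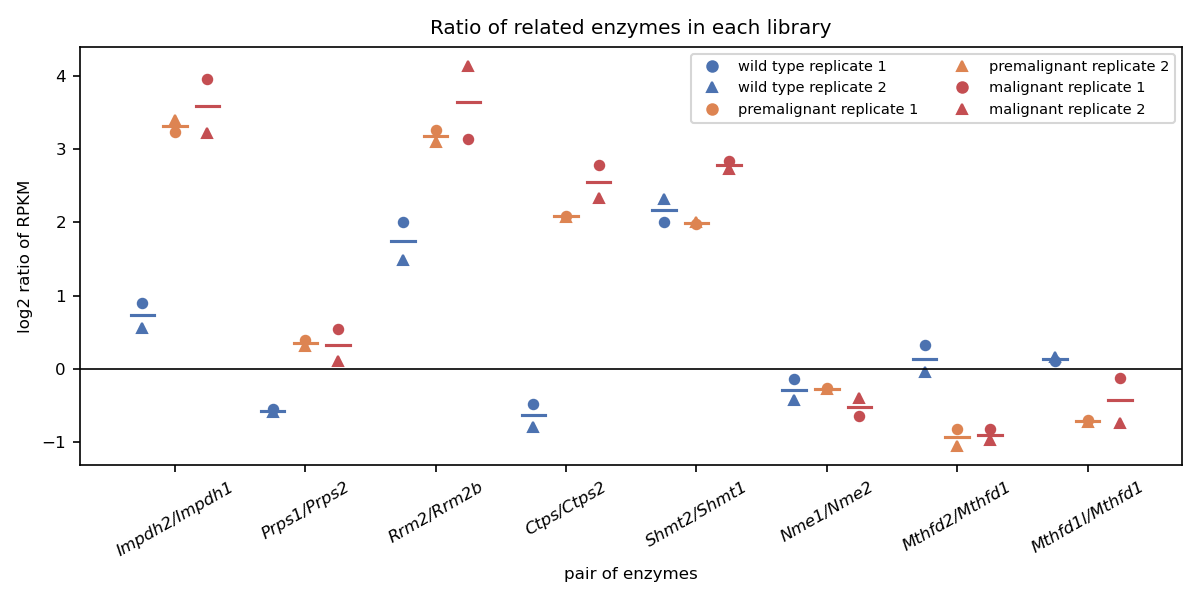
Log2 ratio of RPKM (vertical axis) of 8 pairs of related enzymes in each of the 6 libraries, with bars at the mean of each stage. The points of Impdh2/Impdh1, Prps1/Prps2, Ctps/Ctps2 and Rrm2/Rrm2b lie higher in both Eμ-Myc stages than in wild type, and those of Mthfd2/Mthfd1 and Mthfd1l/Mthfd1 lie lower.

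The order of the genes by level per length differed between the stages. In wild type the most abundant by mean RPKM were Rrm2 at 149.9, Dck at 128, Rrm1 at 86.7 and Hprt at 81.0, whereas in malignant cells they were Shmt2 at 258, Impdh2 at 174, Hprt at 162 and Aprt at 135. The place of Impdh2 is subject to its few unique windows. Shmt2 was in place 12 in wild type at 33.6 RPKM and in place 2 in premalignant cells at 177. Dck went from place 2 in wild type to place 8 in premalignant and place 16 in malignant cells, Rrm2b from place 8 to 29 and 32, and Impdh1 from place 10 to 28 and 29. Neighbouring places often did not differ beyond the replicates, as with Rrm1 and Hprt in wild type, where the replicates of Rrm1 were 104.4 and 69.0 RPKM and those of Hprt 97.2 and 64.8 RPKM.

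Within stages the replicates were close in premalignant cells and less so in the others. The median size of the log2 difference between replicates over the 34 genes was 0.26 for wild type, 0.0769 for premalignant and 0.213 for malignant libraries, against 0.25, 0.154 and 0.398 over all genes tested. In wild type, replicate 1 stood above replicate 2 for 28 of the 34 genes. That library also had the lower summed level of granulocyte, monocyte and erythroid markers and the higher summed level of T- and NK-cell markers and of DNA synthesis genes given above, and the part of these in the difference was not tested. In malignant cells replicate 1 was the higher for 15 genes and replicate 2 for 19.

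Of 88 further genes of nucleotide and folate metabolism listed beside the 34, 72 were tested. In malignant compared with wild-type cells 29 were higher and 12 lower, with a median log2 fold change of 0.326, and in premalignant compared with wild-type cells 26 were higher and 13 lower, with a median of 0.252. The share called, 56.9% in malignant and 54.2% in premalignant cells, compares with 49.2% and 39.3% of all genes tested. In premalignant cells fewer of these other pathway genes were called lower without either premalignant library or without wild type replicate 2. The same held for all genes tested. The largest rise among these genes was that of Slc19a1, the reduced folate carrier, which stood at 12.7 and 16.4 CPM for wild type, 85.8 and 90.98 CPM for premalignant and 182 and 258 CPM for malignant replicates and changed by 3.92 ± 0.24 (SE, adjusted p = 0.00054) from wild type to malignant cells. Dctd, which deaminates dCMP, stood at 3.26 and 3.65 CPM (wild type), 32.6 and 31.7 CPM (premalignant) and 41.2 and 53.9 CPM (malignant) and rose by 3.78 ± 0.21 in malignant cells. Uck2, a uridine-cytidine kinase, rose by 3.05 ± 0.21, Slc29a2, a nucleoside transporter, by 2.69 ± 0.29, Adk, the adenosine kinase, by 2.53 ± 0.18 and Gcsh, of the glycine cleavage system, by 2.39 ± 0.14.

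The 6 largest falls included enzymes that degrade or interconvert purines. Xdh, which oxidises purines to uric acid, stood at 15.1 and 20.2 CPM for wild type, 2.86 and 4.01 CPM for premalignant and 0.732 and 1.76 CPM for malignant replicates, a log2 fold change of -3.84 ± 0.51 (SE, adjusted p = 0.00246) in malignant cells. Gda, the guanine deaminase, stood at 17.8 and 47.9 CPM (wild type), 5.30 and 7.11 CPM (premalignant) and 1.30 and 3.37 CPM (malignant), and Gmpr, which returns GMP to IMP, at 6.57 and 6.26 CPM (wild type), 1.41 and 1.11 CPM (premalignant) and 0.293 and 0.896 CPM (malignant). Gda, Xdh and Slc28a2 (84.9 and 113 CPM in wild type) were higher in wild type replicate 2 than in replicate 1, as were the summed granulocyte and monocyte and the summed erythroid markers, and the part of those cells in these changes was not tested. Ggh, which trims polyglutamate from folate, stood at 5.82 and 4.62 CPM (wild type), 4.002 and 5.001 CPM (premalignant) and 0.167 and 1.04 CPM (malignant), and was called lower in malignant cells, with -3.17 ± 0.78 (SE, adjusted p = 0.0199), but not in premalignant cells, with -0.21 ± 0.70 (SE, adjusted p = 0.838). Its difference between malignant and premalignant cells, -2.95 ± 0.78 (SE, adjusted p = 0.115), was not called. The malignant libraries held only 8 and 29 counts of Ggh. The nucleoside transporter Slc28a2 changed by -1.88 ± 0.40 and Adssl1, the second adenylosuccinate synthetase, by -1.30 ± 0.33, and the call of Adssl1 was lost without wild type replicate 2. Adssl1 stood at 71.9 and 75.4 CPM (wild type), 19.9 and 19.6 CPM (premalignant) and 19.5 and 40.6 CPM (malignant), opposite in direction to the change of Adss. Between malignant and premalignant cells 4 of the 72 genes were called (5.56%, against 6.18% of all genes tested). Slc19a1 was higher in malignant cells by 1.31 ± 0.21 (SE, adjusted p = 0.0388) and Adk by 0.81 ± 0.17 (SE, adjusted p = 0.0732), and both calls were lost without either premalignant library, without either wild-type library and in the fit of 2 stages. The other calls were Entpd1, which was higher, and Nme4, which was lower, both named after their values were seen.

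**Figure D5:**
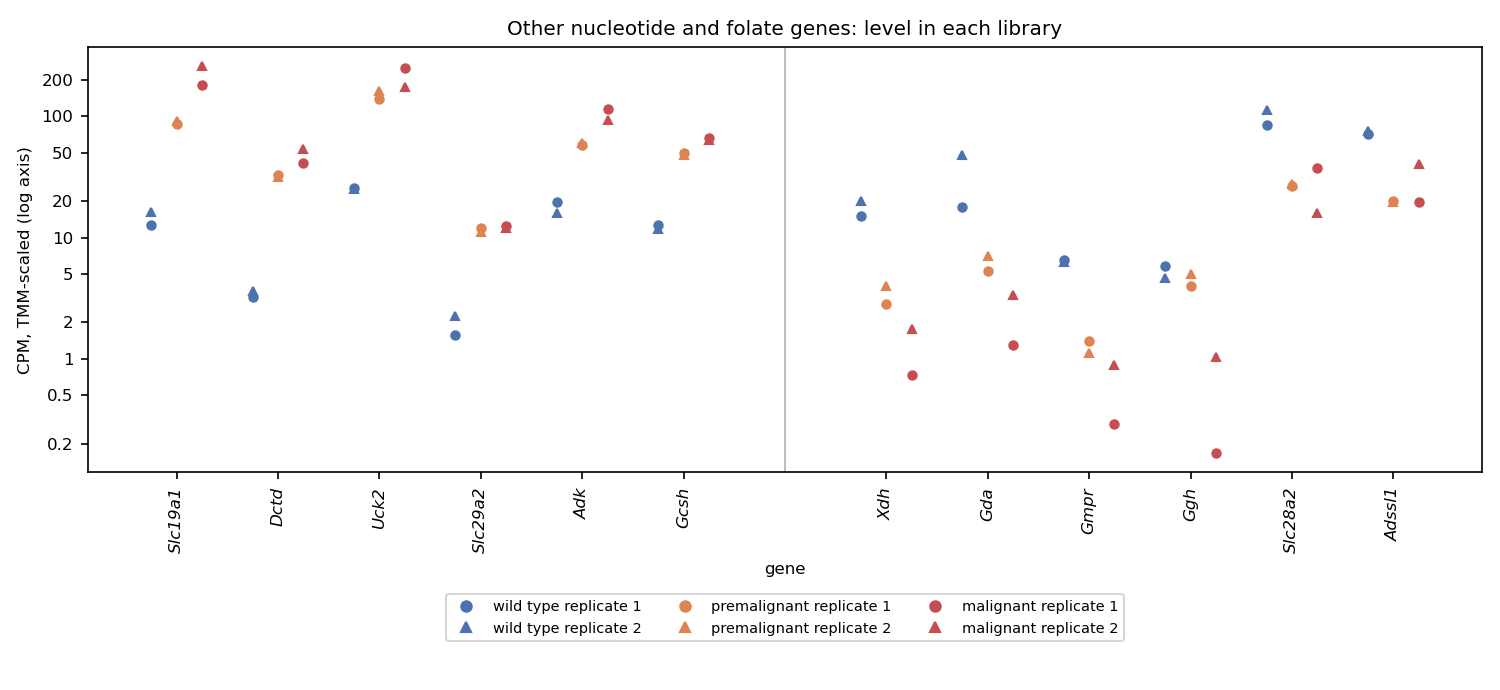
Level of the other nucleotide and folate genes named in the text, in TMM-scaled CPM on a log axis, in each of the 6 libraries, with the 6 largest rises between malignant and wild-type cells on the left and the 6 largest falls on the right. Slc19a1 and Dctd step up from wild type to premalignant to malignant cells, although the step of Dctd from premalignant to malignant cells was not called. Ggh has its lowest points in the malignant libraries.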

How the data were processed

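Polyadenylated RNA was sequenced as 50-bp single-end reads from 6 libraries of pre-B cells. Reads were aligned by the authors with TopHat, and gene counts from HTSeq were deposited as raw counts. The submitters' processing notes name CASAVA 1.8.2, Bowtie, HTSeq, DESeq and build mm9. HTSeq's strand setting is not given in the sources used here, so reads of overlapping antisense genes cannot be assigned with certainty. Deposited DEseq tables hold the authors' own comparisons and were not used.

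Groups came from the labels. Counts were tested with edgeR 4.0.16 (R 4.3.3; quasi-likelihood, TMM, default filter on low counts) over all 6 libraries in 1 fit, at the study's thresholds (FDR of 0.1, absolute log2 fold change of 0.5). The standard error was taken from the log2 fold change and its F statistic. RPKM used total counts and GENCODE vM1 exon lengths. Paralog ratios were taken from RPKM, with 0.5 counts added only in an alternative. A level of 3 counts corresponds to 0.0526 to 0.108 CPM. The fits were tested on simulated data. Alternatives were DESeq2 1.42.0, other scalings and filters, the replicate block, fits of 2 stages, other thresholds and leaving out each library. Scaling by total counts was added after the counts were seen.

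All 34 genes are named. Of the other pathway genes, the 6 largest rises and 6 largest falls between malignant and wild-type cells were named, among genes called, with a mean of 5 CPM or more in whichever stage was higher and without overlap. A further gene named by the rule, and a marker, are not reported here. The genes and lists were chosen with earlier results of these data known. Of 37991 identifiers, 786 had no symbol.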

Additional observations from a re-analysis of the deposited data

How the results depend on the processing

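No library could be examined as an outlier, since each stage has 2. TMM takes most genes as unchanged, and no spike-in was analysed here. With total counts in place of TMM the median over all genes tested shifted by -0.29 for malignant vs. wild type and by -0.21 for premalignant vs. wild type, and with upper-quartile normalization by -0.17 and -0.085. The median of the 34 genes was then 1.43 and 1.25 with total counts, and 1.56 and 1.37 with upper quartiles. Of all genes tested, 4153 rose and 4059 fell from wild type to malignant cells under TMM, and 2957 were higher and 5367 lower with total counts. For premalignant vs. wild type these were 3169 and 3394 under TMM and 2247 and 4438 with total counts. For malignant vs. premalignant they were 623 and 408 under TMM, 487 and 492 with upper quartiles and 466 and 455 with total counts. Adss, Tyms, Rrm1 and Prps2 lost their call in malignant vs. wild type with total counts, and Tyms and Prps2 in premalignant vs. wild type. The cause of these losses was not tested.

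For malignant vs. wild type and premalignant vs. wild type, the counts of the 34 genes called in each direction stayed within 1.5 times their value under every alternative that kept all 6 libraries, apart from the genes lower at a log2 fold change of 1 or more in size, which were 2 in malignant and 1 in premalignant cells. Of the other pathway genes in malignant vs. wild type, 21 were lower with total counts. The number called over all genes tested also changed with the library left out. Leaving out 1 library gave, for malignant vs. wild type, 29 to 33 members called (25 to 29 higher, 4 to 4 lower), 35 to 47 other pathway genes called (26 to 33 higher, 9 to 16 lower) and a median of 1.45 to 1.82. For premalignant vs. wild type it gave 23 to 31 members (22 to 28 higher, 1 to 3 lower), 22 to 47 other pathway genes (18 to 30 higher, 4 to 17 lower) and a median of 1.42 to 1.71.

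Malignant vs. premalignant depended on the setting. Of the 34 genes, 1 was called in a fit of the 2 stages (1 higher, 0 lower) and 1 at an FDR of 0.05 (1 higher, 0 lower). At a log2 fold change of 1 or more in size 0 were called (0 higher, 0 lower). In edgeR 6 had an unadjusted p under 0.05. DESeq2 called 6 of the 34 at the usual fold, and 2169 of 15702 genes over the whole table. With 1 library left out, 0 to 10 were called (0 to 8 higher, 0 to 4 lower), with 0 to 17 other pathway genes (0 to 11 higher, 0 to 9 lower) and a median of 0.0021 to 0.13. For the other pathway genes, DESeq2 called 9 (6 lower), no filter on low counts 13 (7 higher, 6 lower), at least 10 counts in every library left 2 lower, and the fit of 2 stages called 1 (1 higher, 0 lower). The median of the 34 genes was 0.066 with DESeq2, 0.074 with DESeq2 size factors in edgeR, 0.012 with upper quartiles, 0.0087 with total counts, 0.09 without a filter, 0.067 with at least 10 counts in every library and 0.08 in the fit of 2 stages. The number called over all genes tested also changed with the library left out. The cause of this dependence on the setting was not tested.

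The replicate numbers are shared by the stages, but nothing in the labels says that they mark a shared litter, batch or day. Deviations of same-numbered libraries correlated at 0.509 between wild type and premalignant, 0.186 between wild type and malignant and 0.257 between premalignant and malignant cells, over 16683 genes that are not independent replicates. With the replicate block 33, 30 and 4 of the 34 genes were called in malignant vs. wild type, premalignant vs. wild type and malignant vs. premalignant, with 2 higher in the last, where Shmt2 and Mthfd1l were not called. The block gave 3 other pathway genes lower there and a median of 0.092 for the 34 genes.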

Other observations

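Gphn, which encodes gephyrin, a scaffold protein that also makes the molybdenum cofactor used by xanthine oxidase, was listed among the other purine genes and was singled out after its values were seen. It stood at 30.3 and 27.1 CPM in wild type, 28.2 and 29.7 CPM in premalignant and 0.941 and 42.1 CPM in malignant cells, so that malignant replicate 1 was far below the other 5 libraries and malignant replicate 2 above them.

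The 6 libraries also differed at Nme4, a mitochondrial nucleoside diphosphate kinase, and at Entpd1, an enzyme of the cell surface that removes phosphates from extracellular ATP. Nme4 stood at 4.96 and 4.70 CPM in wild type, 30.3 and 31.6 CPM in premalignant and 12.97 and 8.25 CPM in malignant cells. Entpd1 stood at 33.9 and 35.3 CPM in wild type, 9.34 and 10.9 CPM in premalignant and 26.3 and 25.9 CPM in malignant cells. Both genes thus had the premalignant libraries at one end and wild type at the other, with the malignant libraries between them, and both were named after their values were seen.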
